A study of Mus musculus with 30 samples.

Results

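Immunoglobulin variable (V) gene segments were followed in the colon epithelial scrapes of mice with chemically induced colitis. The segments were the rows of the gene count table named Ighv (heavy chain), Igkv (kappa light chain) or Iglv (lambda light chain) whose counts summed to at least 200 over the 30 libraries. Of 350 such rows among 46078 genes, 134 reached the minimum, namely 65 of 185 heavy rows, 66 kappa rows and all 3 lambda rows. The other 216 rows held 2.12% of all V counts, 131 of them were annotated as pseudogenes, and 111 had no count in any library. The members nearest above the minimum were Ighv1-47 with 204 counts, Ighv2-5 with 207 and Ighv13-2 with 261, and the rows nearest below it were a kappa segment with 199 counts, Ighv1-34 with 196 and Ighv8-5 with 195.

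Each maturing B cell joins 1 V segment to shorter gene pieces (diversity and joining segments in the heavy chain, joining segments alone in the light chains) and so builds a variable exon that encodes most of the antigen-binding part of its antibody. All progeny of that cell keep the joined segment, and a plasma cell, the antibody-secreting end stage, transcribes it at a very high rate. In the colon, plasma cells of the lamina propria under the epithelium mostly make IgA, whose heavy chain constant region is encoded by Igha. Their IgA is linked into dimers by the J chain (Jchain) and carried through the epithelial cells by the receptor Pigr, and V segment RNA is made by cells of the B lineage, not by the epithelium itself.

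The study treated C57BL/6J WT mice of both sexes with the carcinogen azoxymethane (AOM, 1 injection of 10 mg/kg) and then with the colitis-inducing agent dextran sulfate sodium (DSS, 2.5% in drinking water, given 3 times), and sequenced poly-A RNA of the scraped colon. There were 6 groups of 5 mice: female and male mice given vehicle, female and male mice killed 9 weeks after AOM, and female and male mice killed at 15 weeks. All vehicle mice carried the 9-week label and there was no vehicle group of 15 weeks, so that treatment and time cannot be told apart at 15 weeks, and the comparisons with vehicle share their controls. The scrape is a mixture: fewer cells of a type and less RNA per cell cannot be told apart in it.

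The libraries held 9265804 to 30806392 counts on genes, the lowest in female vehicle replicate 5, and V segments took 0.00366% to 0.139% of them. The 9 epithelial markers (Epcam, Cdh1, Krt8, Krt19, Krt20, Vil1, Cdx2, Slc26a3 and Muc2) summed to 13005 to 31699 CPM (counts scaled to the size of each library), and their sum was thus high throughout. Single markers varied: Cdx2 held 113 counts in male vehicle replicate 1 and 9977 in female 15-week replicate 4. Smooth muscle markers stood apart in male vehicle replicate 1, where they summed to 5287 CPM, against 2.14 to 206 CPM in the 20 AOM/DSS libraries. Where leaving out this library changed a count of segments, both counts are given.

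The heavy members lie at chr12:113588267-116000461, the kappa members at chr6:67609713-70704177 and the lambda members at chr16:19085017-19260859 (GRCm38), and all 134 are annotated as IG_V_gene. The end of the V exon is shown for segments that led single libraries, because this stretch shows both how alike the segments are and where the junction to the next gene piece begins. It is printed on the coding strand, here the minus strand for each of these 10, with the codons of the conserved tyrosine, tyrosine or phenylalanine, and cysteine in capitals, a motif found in 132 of 134 members:
Ighv3-6, chr12:114288154-114288213: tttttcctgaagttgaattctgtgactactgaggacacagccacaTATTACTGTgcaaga
Ighv3-8, chr12:114322376-114322435: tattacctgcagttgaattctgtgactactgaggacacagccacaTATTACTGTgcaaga
Ighv6-3, chr12:114391712-114391770: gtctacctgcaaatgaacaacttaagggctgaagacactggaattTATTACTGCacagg
Ighv1-26, chr12:114788372-114788431: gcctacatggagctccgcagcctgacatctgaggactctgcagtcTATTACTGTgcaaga
Ighv1-53, chr12:115158403-115158462: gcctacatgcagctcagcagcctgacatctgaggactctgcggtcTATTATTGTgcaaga
Ighv1-76, chr12:115847881-115847940: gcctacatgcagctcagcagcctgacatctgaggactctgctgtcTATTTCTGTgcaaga
Igkv10-96, chr6:68631966-68632039: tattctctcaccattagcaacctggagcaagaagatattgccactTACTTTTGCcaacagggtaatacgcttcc
Igkv6-15, chr6:70406472-70406545: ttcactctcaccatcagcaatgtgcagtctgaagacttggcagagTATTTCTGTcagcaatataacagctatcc
Iglv1, chr16:19085021-19085094: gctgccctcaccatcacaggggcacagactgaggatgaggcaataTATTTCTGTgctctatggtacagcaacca
Iglv2, chr16:19260405-19260478: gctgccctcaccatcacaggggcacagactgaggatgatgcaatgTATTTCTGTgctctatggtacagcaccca

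Such likeness limits how well reads can be assigned. Over windows of 51 bases, the median member had 77.7% of its windows in no other V gene, 18 members had 100%, and 17 had under 50%, the lowest being Ighv1-72 with 7.80%. Igkv1-110 and Igkv1-117, which led the kappa counts of several libraries each, are shown as an example, with the bases that differ between them in capitals (4 of 120). Both lie on the plus strand of chromosome 6:
Igkv1-110, chr6:68271145-68271264: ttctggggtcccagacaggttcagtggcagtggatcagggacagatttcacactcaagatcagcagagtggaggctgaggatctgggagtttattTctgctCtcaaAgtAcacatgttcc
Igkv1-117, chr6:68121705-68121824: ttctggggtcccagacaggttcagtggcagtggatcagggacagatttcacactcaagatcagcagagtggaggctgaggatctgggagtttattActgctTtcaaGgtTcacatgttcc
Igkv1-110 had 49.9% and Igkv1-117 50.8% of its windows to itself, so counts may have been lost or split between them, and their separate levels are uncertain.

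V segment RNA was higher at 9 weeks of AOM/DSS than in vehicle-treated mice, and at 15 weeks it lay between them. Summed over the 134 members, the vehicle libraries ranged from 38.6 to 353 CPM (median 91.2, n = 10), the 9-week libraries from 161 to 1358 CPM (median 633, n = 10), and the 15-week libraries from 58.0 to 595 CPM (median 184, n = 10). Of the 9-week libraries, 6 of 10 were above every vehicle library, against 2 of 10 at 15 weeks, and 4 of 10 at 15 weeks were below every 9-week library. On the log2 scale the mean total was 6.602 ± 1.14 (SD) in vehicle, 8.92 ± 1.10 at 9 weeks and 7.48 ± 0.99 at 15 weeks. The difference of 2.32 at 9 weeks, a 4.98-fold change, was larger than the spread of mice within a group (SD 1.10), whereas the difference of 0.88 at 15 weeks was smaller. No test is given for this sum, because its members were chosen by their counts in these same libraries: 9-week libraries held 65.4% of the members' counts, and 31 members would not have reached the minimum without them.

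The mice of each group differed widely. The total was 227, 40.1, 38.6, 103 and 53.8 CPM in female vehicle replicates 1 to 5, and 45.9, 177.7, 79.4, 167.7 and 353 CPM in male vehicle replicates 1 to 5. At 9 weeks it was 798, 716, 232, 550 and 160.5 CPM in females, and 857, 1358, 924, 166.3 and 337 CPM in males. Female replicates 3 and 5 and male replicates 4 and 5 at 9 weeks were thus within the range of the vehicle-treated mice. At 15 weeks the total was 58.0, 595, 218, 173 and 194 CPM in females, and 421, 124, 120.5, 95.8 and 218 CPM in males, so that 1 mouse of each sex, female replicate 2 and male replicate 1, stood above the other 4.

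**Figure D1:**
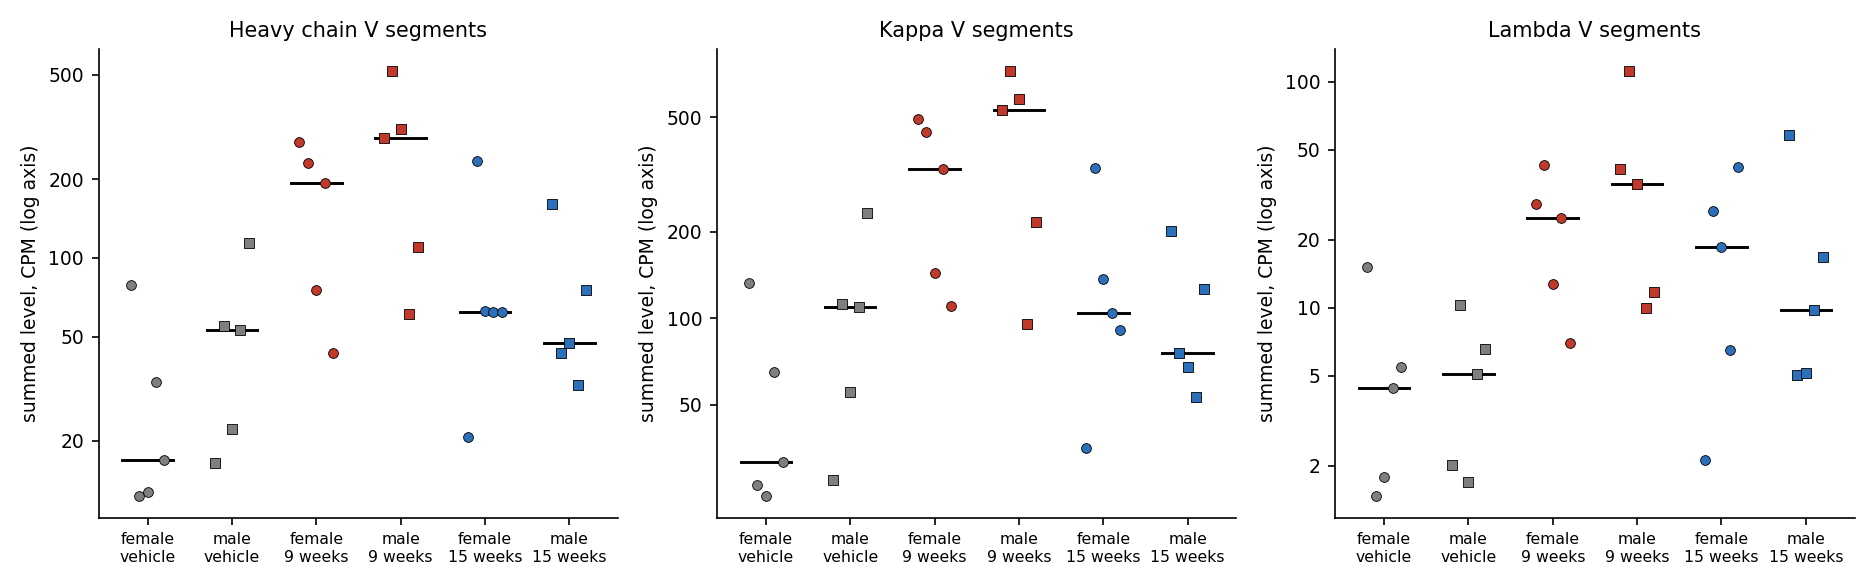
Summed level of heavy, kappa and lambda V segments (CPM, log axis) in each of the 30 libraries by sex and condition, with 1 point per mouse and a bar at the group median. The 9-week groups have the highest medians in each chain, and their lowest mice overlap with vehicle.

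The chains had the same order of levels. Heavy segments had medians of 27.8, 212 and 62.0 CPM in vehicle, 9-week and 15-week libraries, kappa segments 60.4, 387 and 97.4 CPM, and lambda segments 4.76, 26.9 and 13.2 CPM. The ratio of kappa to heavy V counts had medians of 1.99, 1.85 and 1.66. Per constant region count, V counts differed little between conditions: there were 13.01, 12.7 and 13.9 heavy V counts for every 100 heavy constant region counts (medians), and 35.5, 33.1 and 32.4 kappa V counts for every 100 Igkc counts. Igha took a median of 90.4%, 93.7% and 93.6% of the heavy constant region counts in the 3 conditions. IgA was thus the predominant heavy chain class in every condition, as read from constant region counts.

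Segment by segment, 89 of the 134 members rose at 9 weeks (mean of the sexes over vehicle, edgeR's quasi-likelihood test with adjusted p under 0.05, log2 fold change beyond 0.4 and at least 1 FPKM in a compared group), and none fell. Over all 16261 genes tested, 5.51% were called higher in this comparison. The 89 were 45 heavy, 42 kappa and 2 lambda segments. The median log2 fold change of the members was 2.51, with a range of 0.11 to 5.33, while that of all genes was -0.02. Of the 45 segments not called, 27 had an unadjusted p under 0.05. Leaving out male vehicle replicate 1, the library with smooth muscle, gave 81 segments. These counts describe the members and do not support their response independently, since segments that are high only at 9 weeks could reach the count minimum through those libraries: 18 of the 89 would not have reached it without them.

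**Figure D2:**
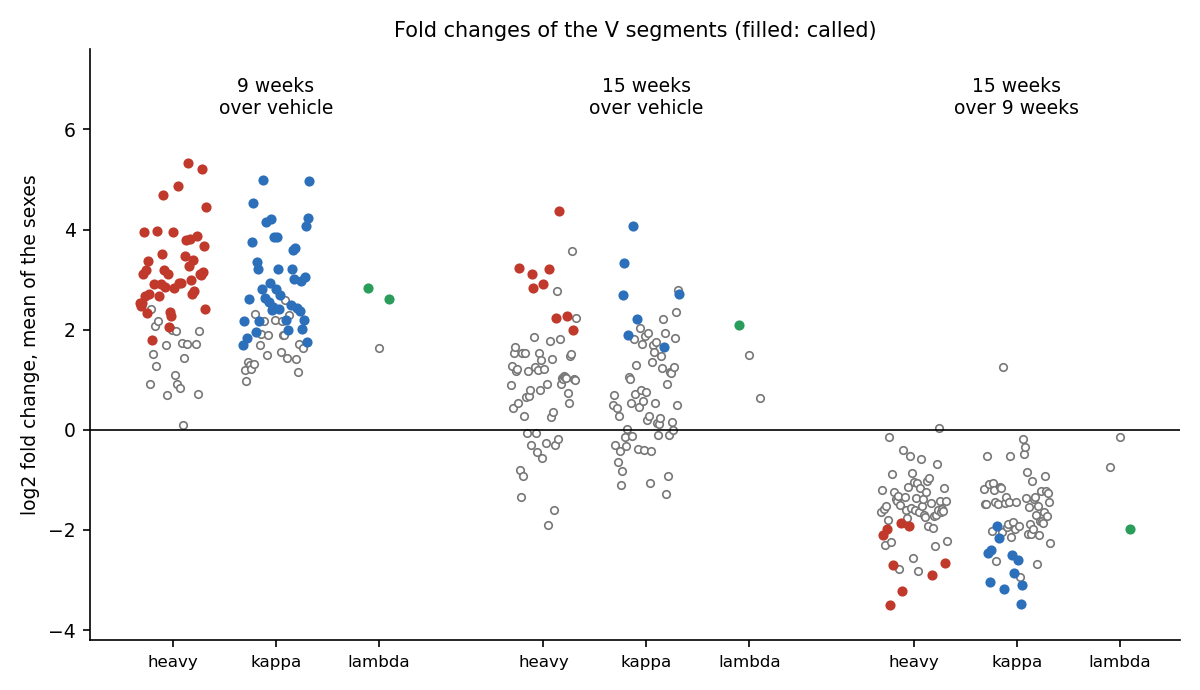
Log2 fold change of each of the 134 V segments, by chain, at 9 weeks over vehicle, at 15 weeks over vehicle and at 15 over 9 weeks (mean of the sexes), with called segments marked. All 134 segments lie above 0 at 9 weeks, with a median of 2.51.

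Ighv3-8, a segment of the small Ighv3 family, had the largest change at 9 weeks. It was the only called segment whose 10 treated and 10 vehicle mice did not overlap (called higher without overlap: 0.746% of members, 0.781% of all genes). Its level was 0.141, 0, 0.037, 0 and 0 CPM in vehicle-treated females and 0.325, 0.471, 0.112, 0.104 and 0.373 CPM in vehicle-treated males. At 9 weeks it was 3.003, 1.38, 0.492, 0.638 and 8.76 CPM in females and 1.91, 11.7, 21.3, 2.70 and 0.764 CPM in males. The lowest 9-week mouse was just above the highest vehicle mouse, and the level of the 9-week mice spanned a wide range. The log2 fold change was 5.33 ± 0.91 (SE, edgeR adjusted p = 1.5e-04). Ighv3-8 was still higher than in vehicle at 15 weeks (4.37 ± 0.90, adjusted p = 0.0025), when it was 0.479, 19.9, 0.642, 2.53 and 0.114 CPM in females and 0.89, 1.76, 2.05, 0.276 and 1.06 CPM in males. The 15-week change is not free of single mice, as female replicate 2 held far more than the rest.

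Among the segments that held most counts on average, some rose at 9 weeks and others did not pass the test. Igkv6-15 rose by 3.002 ± 0.52 (adjusted p = 1.6e-04) and Ighv1-26 by 2.68 ± 0.64 (adjusted p = 0.00445) on the log2 scale. Ighv1-64, Ighv1-72, Ighv8-12, Ighv9-3, Igkv1-110, Igkv1-117, Igkv6-23, Igkv6-17, Igkv10-94, Igkv8-30 and Igkv5-43 were called higher as well, with log2 fold changes of 1.69 (Igkv1-110) to 3.64 (Igkv6-17). Ighv3-6 (1.72 ± 0.71, adjusted p = 0.0984), Ighv1-53 (1.52 ± 0.58, adjusted p = 0.0729) and Igkv10-96 (1.36 ± 0.56, adjusted p = 0.0999) did not pass. Neither did Ighv6-3 (0.71), Ighv1-76 (0.69), Ighv10-1 (1.10) or Igkv1-135 (1.19). Each of these took a large share of the V counts of its chain in 1 or more vehicle-treated mice. Some called segments did so too, such as Igkv1-110 (33.7% in male vehicle replicate 2) and Igkv1-117 (19.0% in female vehicle replicate 4).

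Igkv6-15 shows the change of an abundant kappa segment. It was 3.42, 4.34, 0.037, 4.86 and 1.07 CPM in vehicle-treated females and 1.07, 1.798, 1.98, 4.11 and 2.88 CPM in vehicle-treated males. At 9 weeks it was 31.7, 14.2, 7.52, 18.2 and 22.5 CPM in females and 13.9, 39.3, 40.5, 4.61 and 15.3 CPM in males, and only male replicate 4 fell within the vehicle range. At 15 weeks it was 2.01, 42.8, 6.86, 13.4 and 12.6 CPM in females and 6.29, 2.77, 4.47, 1.58 and 5.96 CPM in males, still higher than vehicle (log2 fold change 1.65 ± 0.50, adjusted p = 0.0257), with several mice within the vehicle range.

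At 15 weeks, 17 members were called higher than vehicle and none lower, where 3.46% of all genes were called higher. They were 9 heavy, 7 kappa and 1 lambda segment, and all 17 were among those called at 9 weeks. The comparisons share their vehicle mice, so this overlap is no second line of evidence. The median log2 fold change was 1.01, and 104 of 134 were positive. Next to Ighv3-8, the largest changes were those of Igkv2-112 (4.07, adjusted p = 0.00483) and Igkv12-98 (3.33, adjusted p = 0.00602), and the smallest was that of Igkv6-15. The count depended on single mice: it was 29 without female vehicle replicate 1, 9 without female 15-week replicate 2, 8 without male 15-week replicate 1, and 12 without male vehicle replicate 1.

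Compared directly, 21 members were lower at 15 than at 9 weeks and none higher, beside 1.91% of all genes called lower. They were 9 heavy, 11 kappa and 1 lambda segment, and 20 of them had been called higher at 9 weeks. Both comparisons use the same 9-week mice, so this overlap is no second line of evidence either. The largest differences were those of Ighv1-47 (-3.50), Igkv4-68 (-3.47) and Ighv1-66 (-3.22). Of the 21, 6 reached the count minimum only through the 9-week libraries, Ighv1-47 (171 of 204 counts) and Ighv1-66 (442 of 557 counts) among them, so that a fall from 9 weeks is partly built into their choice. The median log2 fold change of the members was -1.59. Of the 17 kappa segments of the Igkv4 family, Igkv4-53, Igkv4-57, Igkv4-59, Igkv4-68 and Igkv4-70 were among the 21. The most abundant members were mostly not called in this comparison, Ighv1-64 (-1.87 ± 0.51, adjusted p = 0.0384) and Igkv10-94 (-2.46 ± 0.63, adjusted p = 0.0301) being the exceptions among the 10 leading heavy and 10 leading kappa segments. DESeq2 called 33 members. The count was 6 when female 9-week replicate 4 was left out, and 42 when female 9-week replicate 5, the mouse with the lowest V level of its group, was left out. It was 7 to 9 without female 15-week replicate 1 or without any of the female 9-week replicates 1 and 2 and the male 9-week replicates 1 and 2, 10 without male 9-week replicate 3, 11 without male 15-week replicate 3 or 4, and 12 without female 15-week replicate 4.

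Within females at 9 weeks, 22 members were called higher (2.42% of all genes) with a median log2 fold change of 2.72. DESeq2 called 57, and edgeR on the compared groups alone called 10. In 13 of the 22 the 5 treated and 5 vehicle mice did not overlap, where 1.19% of all genes were called higher without overlap. Of the 22, 3 reached the count minimum only through the 9-week libraries. Ighv1-7, a segment of the large Ighv1 family, was 0.0704, 0.0406, 0, 0 and 0 CPM in vehicle-treated females and 3.30, 3.83, 0.808, 1.999 and 0.591 CPM at 9 weeks. The vehicle level rests on 3 counts in all, against 248 at 9 weeks, a 78.9-fold ratio with an exact 95% counting interval of 26.7 to 385. This interval pools the 5 mice of each group and leaves out the spread between them. The log2 fold change of Ighv1-7 was 6.08 ± 1.20 (SE, edgeR adjusted p = 0.00343). Ighv1-22 was 0.352, 0.0406, 0.037, 0.0442 and 0.213 CPM in vehicle-treated females and 13.6, 6.63, 1.09, 3.79 and 3.92 CPM at 9 weeks (log2 fold change 5.39 ± 1.28, adjusted p = 0.0130). In both segments every 9-week female was above every vehicle-treated female. The count of 22 was 45 without vehicle replicate 1, which had the highest V level of the vehicle-treated females, and 10 without any other vehicle replicate. It was 46 without 9-week replicate 5, 14 without 9-week replicate 1 or 2, and 12 without 9-week replicate 4.

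Within males at 9 weeks, 38 members were called higher (4.42% of all genes) with a median log2 fold change of 2.41, and DESeq2 called 59. In 16 of the 38 the 5 treated and 5 vehicle mice did not overlap, where 3.14% of all genes were called higher without overlap. Of the 38, 9 reached the count minimum only through the 9-week libraries. Igkv3-1 was 0.0325, 0.0428, 0.0374, 0 and 0.299 CPM in vehicle-treated males and 26.4, 0.349, 13.9, 2.27 and 0.590 CPM at 9 weeks. It is one of the 9, with 1463 of its 1619 counts in 9-week libraries, so its log2 fold change of 6.66 ± 1.496 is given as a description, with no test. Ighv5-4 was 0.0651, 0.128, 0.112, 0.276 and 0.224 CPM in vehicle and 2.09, 26.3, 1.42, 1.97 and 3.19 CPM at 9 weeks (5.39 ± 1.27, adjusted p = 0.00719), a change that lost the call without male 9-week replicate 2. Igkv9-124 was 0.13, 0.214, 0.337, 0.0691 and 0.224 CPM in vehicle and 2.16, 30.7, 3.72, 0.86 and 1.91 CPM at 9 weeks (5.31 ± 1.19, adjusted p = 0.00532). In these 3 segments all 5 treated males were above all 5 controls, and the height of the mean came from 1 or 2 mice. The count of 38 was 24 without male vehicle replicate 1, 25 without male vehicle replicate 3 and 24 without male 9-week replicate 2.

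The sexes were not shown to differ. Of the 48 segments called at 9 weeks in either sex, 12 were called in both. A test of the difference between the male and the female response called no segment at 9 weeks (0 of 134; 11 with an unadjusted p under 0.05; DESeq2 0) nor at 15 weeks in edgeR (0 of 134; 23 with an unadjusted p under 0.05; DESeq2 1), and 0% of all genes in either case. Males compared with females directly gave 0 segments in vehicle (19 with an unadjusted p under 0.05; DESeq2 4; 0.178% of all genes), 0 at 9 weeks (13; DESeq2 0; 0.0492% of all genes) and 0 at 15 weeks (10; DESeq2 0; 0.184% of all genes). The vehicle count was 7 without female vehicle replicate 1. Over all other settings tried, the vehicle count was higher in 5 and the same in 12.

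At 15 weeks within 1 sex, few segments were called. In females edgeR called 0 members (42 with an unadjusted p under 0.05; DESeq2 5), where 0.0861% of all genes were called higher. In males it called 5 higher (3.73% of members, 4.37% of all genes) and 1 lower (0.746% of members, 4.55% of all genes). With the compared groups alone it called 1 in all. Neither share of the members exceeded that of all genes. Igkv12-47 was 0, 0.128, 0, 0.0691 and 0.0747 CPM in vehicle-treated males and 5.04, 0.408, 0.322, 1.03 and 0.822 CPM at 15 weeks (log2 fold change 4.72 ± 1.29, adjusted p = 0.0166), and Ighv2-9-1 was 0.0976, 0.2997, 0.0749, 0.138 and 0.448 CPM in vehicle and 3.80, 1.22, 2.09, 0.551 and 0.822 CPM at 15 weeks (2.99 ± 0.98, adjusted p = 0.0407). The 5 against 5 mice did not overlap in either of these 2 segments. They were 1.49% of the members, where 1.91% of all genes were called higher without overlap. Ighv2-9-1 lost its call in 8 of 17 other settings, and Igkv12-47 lost it without male vehicle replicate 1 or male 15-week replicate 1. The segment called lower, Ighv1-5 (-4.17, adjusted p = 0.0418), rested on male vehicle replicate 5, which held 5.97 CPM where the other vehicle-treated males held 0 to 0.521 CPM. Without male vehicle replicate 1 no segment was called, and without male 15-week replicate 1 the count was 1 (without male vehicle replicate 3 or 5, it was 3 in both directions together).

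The number of segments in use was read in 3 ways. The plain count of heavy segments with a read was 35 to 63 of 65 in vehicle, 51 to 65 at 9 weeks and 48 to 62 at 15 weeks, and that of kappa segments 34 to 66, 59 to 66 and 50 to 66 of 66. This count grows with the number of V reads, which for heavy segments reached 11894 in 1 library and was lowest in female vehicle replicate 5. Reduced to that lowest number of heavy reads in each library, the expected number of segments was 29.8 to 42.6 (median 35.2) in vehicle, 37.5 to 48.4 (median 44.4) at 9 weeks and 39.1 to 45.3 (median 42.7) at 15 weeks, and 9 of 10 libraries at 9 weeks and 5 of 10 at 15 weeks exceeded every vehicle library. At 296 kappa reads it was 31.4 to 50.97 (median 42.0), 44.0 to 53.2 (median 51.7) and 46.0 to 51.9 (median 49.4), with 6 of 10 and 3 of 10 above every vehicle library. The members' choice by total counts favours segments used at 9 weeks, so the same was computed over all V rows with no count minimum. At the lowest library's heavy reads the medians were then 39.3, 48.4 and 47.1 of 185 rows, and at its kappa reads 45.1, 54.9 and 52.9 rows, with as many libraries above every vehicle library as before. At equal reads the medians were thus higher at both times than in vehicle, with overlap.

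The third reading was the effective number of segments, the inverse Simpson index, which is the number of equally used segments that would give the same evenness. For heavy segments it was 25.0, 13.6, 13.1, 12.6 and 8.85 in female vehicle replicates 1 to 5 and 20.04, 16.9, 28.3, 19.0 and 15.9 in male vehicle replicates 1 to 5. At 9 weeks it was 26.1, 32.7, 25.9, 29.6 and 14.2 in females and 29.6, 24.2, 29.1, 31.7 and 25.3 in males. Only female replicate 5 at 9 weeks was in the lower part of the vehicle range. At 15 weeks it was 19.8, 25.5, 28.9, 29.2 and 20.4 in females and 11.6, 28.2, 33.0, 23.8 and 30.5 in males, with male replicate 1 as low as the lower vehicle-treated mice. The means were 17.3 in vehicle, 26.8 at 9 weeks and 25.1 at 15 weeks, differences of 9.50 and 7.77 from vehicle beside a within-group SD of 5.94. The 15-week and 9-week means differed by less than that spread.

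For kappa segments the order of the conditions was the same. Their effective number was 24.0, 11.6, 14.5, 12.4 and 7.51 in vehicle-treated females and 15.9, 7.59, 29.9, 16.0 and 16.9 in vehicle-treated males. It was 19.6, 26.4, 28.3, 33.2 and 10.9 in 9-week females and 33.2, 29.2, 20.4, 26.9 and 20.8 in 9-week males. It was 15.4, 21.02, 22.5, 19.7 and 17.2 in 15-week females and 18.6, 26.8, 25.96, 28.5 and 27.4 in 15-week males. The median was 15.2 in vehicle, 26.6 at 9 weeks and 21.8 at 15 weeks, with overlap between all conditions. The differences of the means from vehicle were 9.24 and 6.66 beside a within-group SD of 6.20. Male vehicle replicate 3 had the most even kappa usage of the vehicle-treated mice and one of the most even of all.

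**Figure D3:**
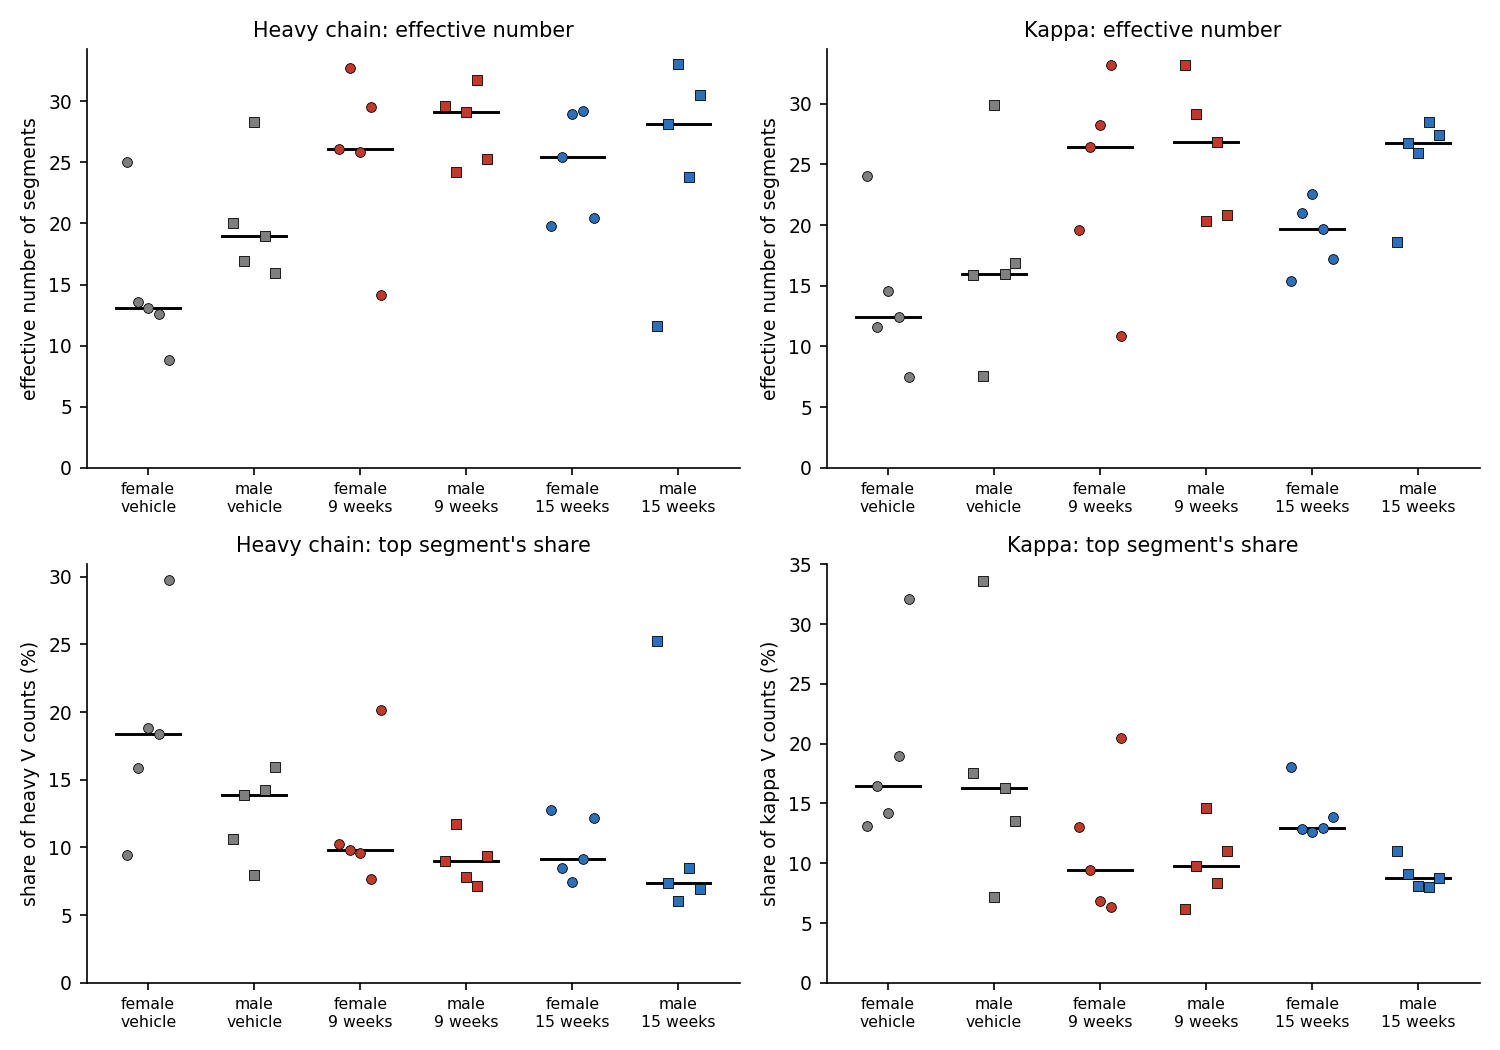
Effective number of segments and share of the top segment (percent of the V counts of its chain) for heavy and kappa segments in each library by sex and condition, with bars at the group medians. Vehicle libraries have the lowest medians of the effective number (16.4 heavy, 15.2 kappa) and the highest top shares (15.1% and 16.4%).

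Single segments dominated some mice. The leading heavy segment held 7.94% to 29.7% of the heavy V counts in vehicle (median 15.1%), 7.17% to 20.2% at 9 weeks (median 9.51%) and 6.02% to 25.3% at 15 weeks (median 8.47%). The highest share, 29.7% (exact binomial 95% interval 22.7% to 37.5%), was that of Ighv1-76 in female vehicle replicate 5, the library with fewest counts, where it rested on 47 counts. Ighv6-3 held 25.3% (23.6% to 26.9%) in male 15-week replicate 1, a share backed by 686 counts, and Ighv3-8 held 20.2% (17.5% to 23.1%) in female 9-week replicate 5. Reads were not deduplicated by molecule, so the intervals cover counting error only. The difference of the mean top share from vehicle was -5.23 percentage points at 9 weeks and -5.09 at 15 weeks, close to the within-group SD of 5.21.

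In the vehicle-treated females the leading heavy segment was Ighv3-6 (9.45%), Ighv1-82 (15.9%), Ighv5-4 (18.8%), Ighv6-3 (18.4%) and Ighv1-76 (29.7%), and in the vehicle-treated males Ighv10-1 (10.7%), Ighv1-55 (13.8%), Ighv10-1 (7.94%), Ighv3-6 (14.2%) and Ighv1-53 (15.9%). In 9-week females it was Ighv3-6 (10.2%), Ighv14-2 (9.81%), Ighv5-17 (9.62%), Ighv1-64 (7.69%) and Ighv3-8 (20.2%), and in 9-week males Ighv8-12 (9.01%), Ighv3-6 (11.7%), Ighv1-9 (7.80%), Ighv1-72 (7.17%) and Ighv1-74 (9.39%). In these 4 groups a leader was repeated only in vehicle-treated males, where Ighv10-1 led 2 mice. At 15 weeks it was Ighv1-42 (12.8%), Ighv1-26 and Ighv3-8 tied (8.48%), Ighv1-53 (7.43%), Ighv6-6 (9.13%) and Ighv3-6 (12.1%) in females, and Ighv6-3 (25.3%), Ighv1-42 (7.36%), Ighv1-26 (6.02%), Ighv8-12 (8.46%) and Ighv1-53 (6.91%) in males. In all, 19 of the 65 heavy segments led at least 1 library, and the most frequent, Ighv3-6, led 5.

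There were 14 different leaders among the 66 kappa segments, and Igkv10-96 and Igkv1-117 led 6 libraries each. The leading kappa segment held 7.21% to 33.7% in vehicle (median 16.4%), 6.16% to 20.5% at 9 weeks (median 9.61%) and 8% to 18.0% at 15 weeks (median 11.8%). In vehicle, Igkv1-110 held 33.7% (31.8% to 35.5%) of the kappa V counts of male replicate 2, and Igkv10-96 held 32.1% (26.8% to 37.7%) of those of female replicate 5. The other vehicle leaders were Igkv10-96, Igkv6-15, Igkv1-135 and Igkv1-117 in female replicates 1 to 4, and Igkv10-96, Igkv1-110, Igkv10-94 and Igkv17-127 in male replicates 1, 3, 4 and 5. At 9 weeks they were Igkv6-17, Igkv4-63, Igkv4-57, Igkv1-110 and Igkv6-15 in females, and Igkv1-117, Igkv1-117, Igkv6-23, Igkv1-110 tied with Igkv4-53, and Igkv8-27 in males.

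At 15 weeks Igkv6-15 led the kappa counts of 3 females and no male, and Igkv1-117 those of 3 males and no female. The leaders were Igkv10-96 (18.0%), Igkv6-15 (12.8%), Igkv10-96 (12.6%), Igkv6-15 (12.9%) and Igkv6-15 (13.9%) in females, and Igkv10-96 (11.0%), Igkv8-28 (9.07%), Igkv1-117 (8.13%), Igkv1-117 (8%) and Igkv1-117 (8.76%) in males. The top share of every female was above that of every male at this time, a description of 5 against 5 mice that was not tested. The mean difference of the top kappa share from vehicle was -7.70 percentage points at 9 weeks and -6.78 at 15 weeks beside a within-group SD of 5.85.

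**Figure D4:**
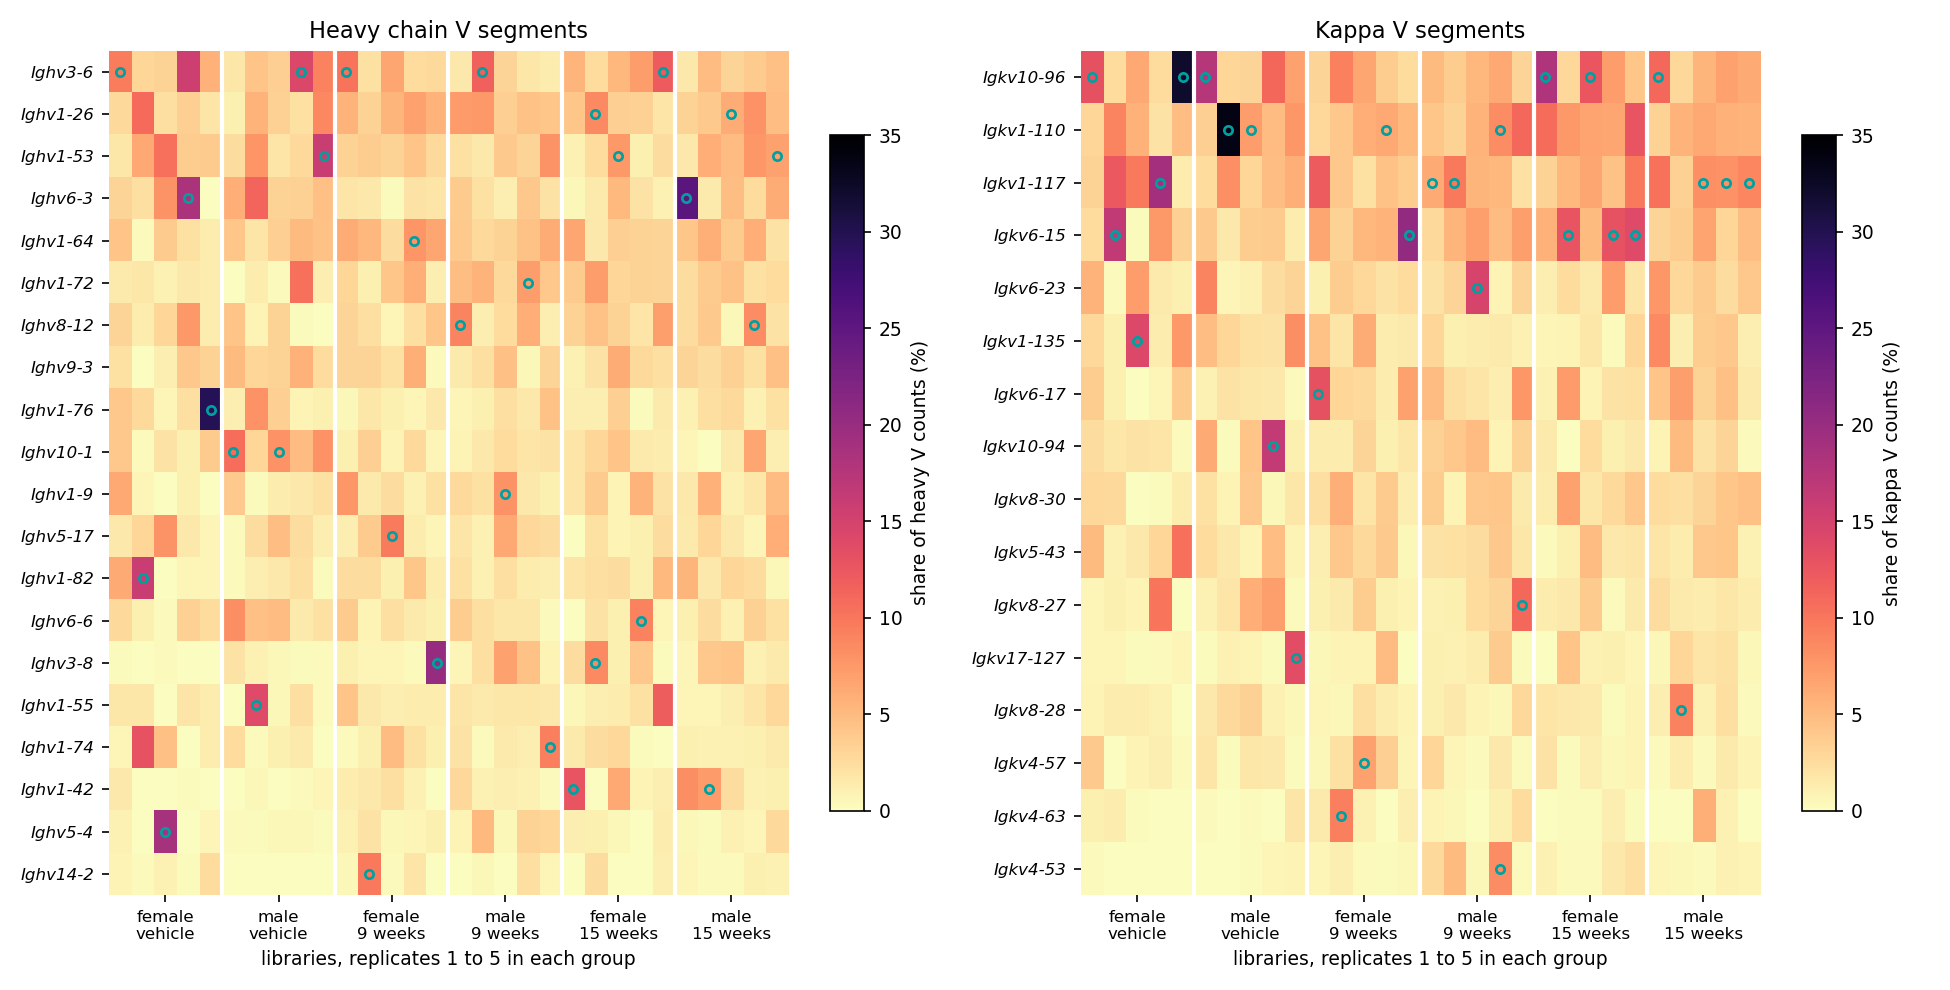
Share of the V counts of its chain (percent, colour) held by the leading heavy and kappa segments in each of the 30 libraries, ordered by group, with circles on the top segment or tied segments of each library. Ighv3-6 is the top heavy segment in 5 libraries, and Igkv10-96 and Igkv1-117 are the top kappa segments in 6 each.

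Averaged over libraries, usage was broad. The 10 leading heavy segments held 37.7% of the heavy V counts, namely Ighv3-6 (5.4%), Ighv1-26 (4.8%), Ighv1-53 (4.4%), Ighv6-3 (4.3%), Ighv1-64 (4.0%), Ighv1-72 (3.2%), Ighv8-12 (3.1%), and Ighv9-3, Ighv1-76 and Ighv10-1 (2.8% each). The 10 leading kappa segments held 44.4%, namely Igkv10-96 (7.4%), Igkv1-110 (6.9%), Igkv1-117 (6.4%), Igkv6-15 (6.1%), Igkv6-23 (3.4%), Igkv1-135 (3.2%), Igkv6-17 (3.1%), and Igkv10-94, Igkv8-30 and Igkv5-43 (2.6% each). Shares are of counts and are not corrected for length. The means hide large swings in single mice: Ighv6-3 had 0.00% to 25.3% of the heavy counts, and Ighv3-6 1.3% to 15.5%.

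Ighv6-3 gives an example of a segment led by 1 mouse. Its level was 2.43, 0.284, 0.999, 6.14 and 0 CPM in vehicle-treated females and 0.976, 6.21, 0.711, 1.76 and 5.30 CPM in vehicle-treated males. At 15 weeks it was 0.0958, 3.52, 3.25, 1.25 and 0.569 CPM in females and 40.7, 0.612, 2.21, 0.827 and 4.59 CPM in males. Male replicate 1 was the only 15-week mouse outside the vehicle range, and the log2 fold change at 15 weeks was 0.74 ± 0.74 (adjusted p = 0.496).

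By family, the 34 members of Ighv1 together held 51.5% of the heavy V counts on average, with condition medians of 49.1%, 54.0% and 50.2%, and a range of 29.0% to 78.1% in vehicle, 47.6% to 59.4% at 9 weeks and 44.6% to 57.1% at 15 weeks. The vehicle range was thus wider than the others, in both directions. Ighv5 held 8.6%, Ighv3 8.4% and Ighv6 6.8%. Among kappa families Igkv1 held 16.8%, Igkv6 16.1%, Igkv4 14.4%, Igkv8 10.7% and Igkv10 10.1%. Igkv4 had a median of 11.4% in vehicle, 20.7% at 9 weeks and 13.5% at 15 weeks, with ranges of 6.63% to 18.2%, 6.02% to 27.0% and 8.43% to 20.9% that overlapped.

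Mice of 1 condition shared less of their usage in vehicle than under AOM/DSS. The overlap of 2 libraries, the summed smaller share of each segment, had a median over 45 pairs of 41.9% for heavy segments in vehicle, 59.3% at 9 weeks and 56.5% at 15 weeks. For kappa segments it was 44.1%, 58.7% and 59.1%. Overlap falls when few counts are drawn, and vehicle libraries had the fewest V counts, so that depth moved with this result and its part was not tested.

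Lambda light chains are encoded by few V segments in mice, and Iglv1 led the lambda counts in 27 libraries and Iglv2 in 3, with mean shares of 73.1% (Iglv1), 21.3% (Iglv2) and 5.6% (Iglv3). The lambda share of all light chain V counts was 2.76% to 14.7% in vehicle (median 6.598%), 5.18% to 13.4% at 9 weeks (median 7.12%) and 5.63% to 31.5% at 15 weeks (median 9.57%). In 3 of the 15-week mice the share was above that of all vehicle and 9-week mice, namely female replicate 5 (31.5%), male replicate 1 (22.4%) and male replicate 4 (15.5%). Iglv1 was 6.97, 1.22, 1.48, 3.93 and 1.39 CPM in vehicle-treated females and 1.59, 8.52, 1.39, 3.66 and 5.15 CPM in vehicle-treated males. At 15 weeks it was 1.15, 17.6, 12.96, 4.53 and 37.3 CPM in females and 51.4, 3.22, 1.81, 5.79 and 14.5 CPM in males.

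Iglv1 was 18.4, 33.6, 10.8, 20.1 and 5.81 CPM in 9-week females and 34.8, 102, 26.3, 7.92 and 8.12 CPM in 9-week males. It rose at 9 weeks (log2 fold change 2.84 ± 0.63, adjusted p = 0.00236) and was higher than vehicle at 15 weeks (2.09 ± 0.62, adjusted p = 0.0231). At 15 weeks it was highest in the 2 mice with the highest lambda share. The constant region usually joined to Iglv1 is Iglc1. It was 104 CPM (2752 counts) in female 15-week replicate 5 and 162.6 CPM (2741 counts) in male 15-week replicate 1. The vehicle-treated mice held 1.70 to 9.03 CPM. The 9-week mice held 228 to 4047 Iglc1 counts, the most in male replicate 2, so these 2 mice were not the only ones with many. Iglv3 reached the count minimum only through the 9-week libraries, with 509 counts there and 184 elsewhere. Its log2 fold changes of 2.61 ± 0.57 at 9 weeks and -1.97 ± 0.55 between 9 and 15 weeks are given as a description, with no test. Iglv2 passed in neither comparison with vehicle over both sexes (1.64 ± 0.61, adjusted p = 0.0641 at 9 weeks).

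**Figure D5:**
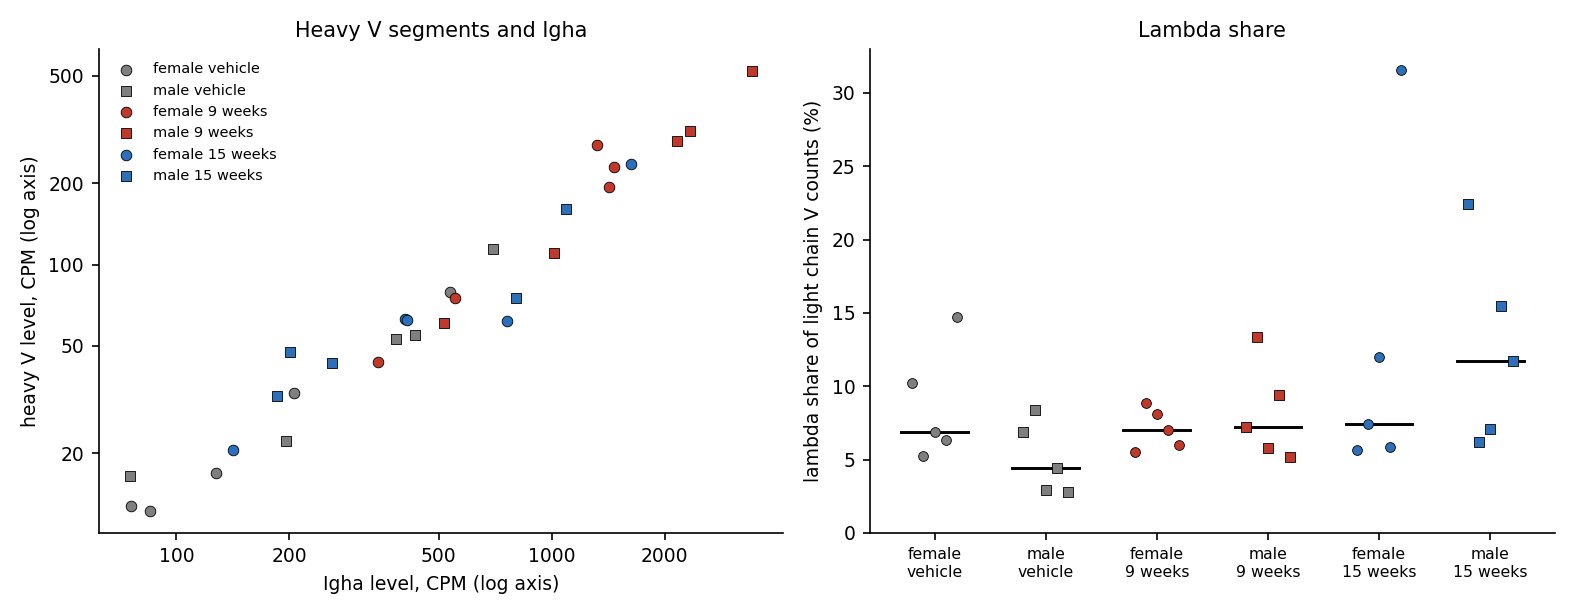
Left, summed heavy V level against the Igha level (CPM, both log axes) in the 30 libraries. Right, lambda share of light chain V counts (percent) by sex and condition, where female replicate 5 (31.5%) and male replicate 1 (22.4%) at 15 weeks stand highest.

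The other genes of antibody-secreting cells were read from lists of constant and joining genes and of plasma cell and B cell genes. At 9 weeks 12 of the 18 tested constant and joining genes rose, with a list median log2 fold change of 2.09 beside -0.02 for all genes. Igha was 75.1 to 699 CPM in vehicle, 345 to 3427 CPM at 9 weeks and 141.7 to 1628 CPM at 15 weeks, and rose at 9 weeks (2.36 ± 0.49, adjusted p = 0.001). Igkc, the kappa constant region, rose by 2.24, Ighm, that of IgM, by 1.27, and Ighg2b and Ighg2c, those of the IgG2 subclasses, by 3.44 and 4.51. Ighg1 (0.58, adjusted p = 0.619) and Ighd (0.67, adjusted p = 0.490) did not pass. At 15 weeks 4 of the 18 were higher than vehicle, namely Iglc1 (3.01), Iglj1, Ighg2b (2.19) and Ighg2c (2.63), and Igha (1.11, adjusted p = 0.101) and Igkc (0.82, adjusted p = 0.203) did not pass. Ighg2c lost its call at 15 weeks without female 15-week replicate 2 or without male 15-week replicate 5.

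Of 10 plasma cell genes in the table, 3 rose at 9 weeks: Jchain (2.15), Mzb1, a chaperone of antibody assembly (1.90), and Prdm1, the regulator that drives plasma cell formation (1.78). In this comparison 7 of the 10 had an unadjusted edgeR p under 0.05, and DESeq2 called 4. The median log2 fold change of the list was 1.47. Prdm1 did not follow Jchain closely in vehicle. The vehicle-treated mouse with most Jchain counts, male replicate 5 (6049), held 79 Prdm1 counts. That with most Prdm1 counts, male replicate 1 (225), held 548 Jchain counts. Which cells the Prdm1 change came from was not tested. Sdc1, Xbp1 and Txndc5, which colon epithelium also expresses, had log2 fold changes near 0 and did not pass. Prdm1 was still higher at 15 weeks (1.13), where Jchain was not (0.57, adjusted p = 0.388), and Jchain fell between 9 and 15 weeks (-1.59, adjusted p = 0.045), a call lost in 18 of 27 other settings. Of 10 B cell genes edgeR called 0 in each of the 3 comparisons (4, 0 and 1 with an unadjusted p under 0.05; 0 by DESeq2 in each), their median log2 fold changes being 1.05 at 9 weeks over vehicle, 0.10 at 15 weeks over vehicle and -1.003 at 15 over 9 weeks. Pigr, the IgA transporter of the epithelium, did not change detectably at 9 weeks (0.10, adjusted p = 0.575).

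As a description over the 30 libraries, the members whose level followed Igha most closely were Iglv1 (Pearson r of log2(CPM + 1) = 0.904), Ighv1-26 (r = 0.886) and Ighv1-64 (r = 0.878). All points share the scaling of their library, and the differences between conditions enter the correlation.

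Markers of other cells were read in the same libraries by condition, and whether they followed the V level mouse by mouse was not tested. The 6 neutrophil markers summed to 0 to 4.002 CPM in vehicle, 0.699 to 125 CPM at 9 weeks and 0.620 to 18.7 CPM at 15 weeks, and 4 of 6 rose at 9 weeks. The 7 T cell markers summed to 5.63 to 19.5, 11.0 to 28.7 and 8.82 to 29.5 CPM (1 called higher at 9 weeks, 0 to 3 when single libraries were left out), the 6 macrophage markers to 33.2 to 92.1, 49.2 to 153 and 48.1 to 126 CPM (2 called higher at 9 weeks, 1 to 4 when single libraries were left out), and the 10 B cell genes to 3.52 to 66.5, 8.82 to 137 and 2.25 to 109 CPM. The 6 smooth muscle markers summed to 2.78 to 5287, 14.5 to 206 and 2.14 to 66.2 CPM, and edgeR called 6 of 6 lower at 15 weeks. This call rested on 2 vehicle-treated mice, since none of the 6 was called without female vehicle replicate 1 or without male vehicle replicate 1, and DESeq2 called 0. The 6 mesenchyme markers, of the connective tissue beneath the epithelium, summed to 16.0 to 977, 28.3 to 279.6 and 8.54 to 112 CPM, and edgeR called 3 of 6 lower at 15 weeks (1 to 4 when single libraries were left out). How much lamina propria each scrape took along is not recorded in the labels, and its part in the V segment levels was not tested.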

How the data were processed

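Poly-A RNA of 30 colon scrapes was sequenced with a stranded kit. Per the study's methods, reads were aligned with STAR to the mouse build GRCm38 (mm10 in the submitters' processing notes, which also name bcl2fastq 2.20.0.422, CASAVA and Trim Galore). The counts deposited by the authors are whole reads per gene from featureCounts, not normalised. The FPKM, TPM and coverage values deposited by the authors for each library came from StringTie, and of these only FPKM was used. Settings and other versions are not given in the sources used here. Reads across the joint to the next gene piece, reads with somatic mutations and reads shared by like segments may not be counted on a V segment, which can lower its counts.

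Genes passing filterByExpr (16261, all 134 members included) were fitted with edgeR 4.0.16 (quasi-likelihood, TMM scaling, R 4.3.3), with 1 coefficient per group over all 30 libraries. P-values were adjusted by Benjamini-Hochberg over all genes tested. A gene was called at an adjusted p under 0.05, a log2 fold change beyond 0.4 and a mean of at least 1 FPKM in a compared group. The procedure was tested on simulated data. CPM are counts scaled to TMM-adjusted library size. The effective number is the inverse Simpson index of a library's segment shares, and shares carry exact binomial intervals at 95%. Alternatives were DESeq2 1.42.0, robust dispersion, the compared groups alone, no filter, no FPKM or fold minimum, other scaling, all V rows, FPKM in place of counts, a replicate block, and leaving out each library in turn. The unbiased index and the restriction to segments with at least 50% of their windows unique were added after seeing the data, as was the number of segments at equal reads over all V rows.

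Segments were named where they led a library, were among the 10 heavy or 10 kappa members of highest mean share, were lambda segments, lay next to the count minimum, followed Igha most closely (up to 3), or were called with groups that did not overlap (up to 3 per direction and comparison). Other called segments named in the text (Igkv2-112, Igkv12-98, Igkv4-68, Ighv1-66, Ighv1-5 and the Igkv4 members lower at 15 weeks) were chosen after their values were seen. The members and all gene lists were chosen with earlier results of these data known. Replicates are numbered samples of a group, 1 mouse each per the study's methods, and libraries of 1 group differed by more than sampling noise in all 60 pairs (chi-square per degree of freedom 13.9 to 301). Sequences were read from the GENCODE transcripts of the members, and their GRCm38 positions were derived from the exons of the same annotation. Python 3.11.15, numpy 2.4.6, pandas 2.3.3 and SciPy 1.17.1 were used. Promoter and protein sequences were not used here.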

Additional observations from a re-analysis of the deposited data

Results flagged for a closer look

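Dixon's test was used to describe single mice that lay far from their group. The levels are skewed and the measures of 1 library are related, so no expected number of flags is given. In 18 of 84 groups of 5 mice tested (library measures and named segments), 1 mouse lay far from the other 4 by this test. Among the library measures these were the effective number of kappa segments in male 15-week replicate 1 (18.6, group median 26.8), the top heavy share in female 9-week replicate 5 (20.2%, median 9.81%) and in male 15-week replicate 1 (25.3%, median 7.36%), the top kappa share in female 15-week replicate 1 (18.0%, median 12.9%), and the lambda share in female 15-week replicate 5 (31.5%, median 7.45%).

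Male 9-week replicate 2, the mouse with the highest V level of all, stood apart in Ighv1-22 (23.3 CPM, median 2.19), Ighv5-4 (26.3 CPM, median 2.09), Igkv9-124 (30.7 CPM, median 2.16) and Igkv12-47 (6.11 CPM, median 1.08). Female 15-week replicate 2 stood apart in Ighv3-8 (19.9 CPM, median 0.642), Igkv12-47 (1.68 CPM, median 0.161) and Ighv2-9-1 (2.99 CPM, median 0.785). Male 15-week replicate 1 stood apart in Ighv1-22 (5.81 CPM, median 0.886) and Igkv12-47 (5.04 CPM, median 0.822). In vehicle-treated mice, Ighv1-22 (4.56 CPM, median 0.299) and Igkv3-1 (0.299 CPM, median 0.0374) stood apart in male replicate 5, and Ighv3-8 in female replicate 1 (0.141 CPM, where the group median is 0). The remaining value was Ighv2-9-1 in female 9-week replicate 4 (8.59 CPM, median 1.46).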

How the results depend on the processing

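Differences between conditions in total V level, effective number, expected number at equal reads and top share were computed in 483 settings. All moved by less than the spread between mice. For each difference, 20 of the 21 to 25 settings left out 1 library. This moves a mean of 10 mice only slightly, so these settings could hardly fail. Counts of called segments stayed within 1.5 times in 207 of 254 settings, many of them comparisons with no called segment, as between the sexes. They did so in 27 settings at 9 weeks over vehicle and in 24 at 15 weeks. At 15 over 9 weeks they did so in 14 (2 higher, 11 lower), and in females at 9 weeks in 6 (3 higher, 8 lower). In males they did so in 13 at 9 weeks and 11 at 15 weeks. The 89 segments at 9 weeks over vehicle became 71 to 100 when single libraries were left out, 97 with DESeq2 and 74 with the replicate block. When single libraries were left out, the count was 8 to 29 at 15 weeks over vehicle, 6 to 42 at 15 over 9 weeks, 10 to 46 in females and 24 to 43 in males at 9 weeks, 0 to 1 in females and 0 to 6 in males at 15 weeks, and 0 to 7 for males over females in vehicle. DESeq2 gave 33 at 15 over 9 weeks, 57 in females and 59 in males at 9 weeks, 5 in females at 15 weeks, 4 between the sexes in vehicle and 1 for the difference in response at 15 weeks. With the compared groups alone the count was 10 in females at 9 weeks and 1 in males at 15 weeks, and without the filter on low counts it was 1 in females at 15 weeks. The cause was not tested. Igkv12-47 did not pass the filter on low counts when only the vehicle-treated and 15-week males were fitted, so this setting gave no value for it. Few V reads limit the measures most in female vehicle replicate 5, the library with the lowest number of them.

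The replicate numbers do not pair the mice: same-numbered libraries had a median correlation of -0.026 of their deviations from the group mean, with 12 of 75 over 0.1. The replicate block gave 11 segments at 15 over 9 weeks and 2 in males at 15 weeks, and other counts stayed within 1.5 times.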
